A study of Homo sapiens with 6 samples.

Results

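The collagen genes were the 44 protein-coding genes, of 58174 genes in the deposited table, whose symbol in GENCODE release 29 (build GRCh38) is COL, a type number, A and a chain number. They fell into 11 fibrillar genes, 6 genes of the basement membrane collagen (type IV) and 27 genes of other types. Each collagen is a trimer of alpha chains wound into a triple helix, and the winding needs a glycine in each triplet of residues along the chain. Fibrillar collagens pack into the fibrils that give tissue its tensile strength, whereas type IV collagen forms the sheet-like network under epithelia. Carcinoma cells of squamous origin make several of these chains themselves, among them type VII collagen, which anchors epithelium to the tissue beneath it, although most interstitial collagen in a tumor comes from fibroblasts.

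The study asked which genes change when BRCA1, a DNA repair protein, is overexpressed in SiHa, a human cell line from a cervical squamous cell carcinoma. The OV-BRCA1 group (3 samples) received the plasmid GV230-BRCA1 and the NC group (3 samples) the empty plasmid GV230, both with Lipofectamine 3000, and the cells were harvested after 48 h for mRNA sequencing. Transfection was transient and in 1 cell line, and no untransfected cells were among the samples. The study's methods call the 3 samples of a group biological replicates; the labels do not say whether they came from separate cultures, and p-values measure the spread between these samples.

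Values are FPKM, fragments scaled to transcript length and to the mapped fragments of the library, summed over the transcripts of each gene. BRCA1 was at 34.9 to 40.8 FPKM in the OV-BRCA1 samples and at 14.9 to 21.7 FPKM in the NC samples (adjusted p = 0.00373, limma). The deposited table holds no counts, so the number of reads behind each value is not known from it; read totals of the libraries are stated in the study's supplement and were not used here. Mitochondrial transcripts took 14.8 to 17.2% of FPKM with OV-BRCA1 against 21.0 to 23.2% with NC, a difference whose part in the collagen values was not tested. Of 11 epithelial markers, KRT17, KRT8, KRT18 and SFN led, with a summed level of 1717 to 1862 FPKM with OV-BRCA1 against 2066 to 2112 FPKM with NC. The lower sum was carried by KRT17 (1033 FPKM ± 90.3 against 1434 FPKM ± 8.67, SD, n = 3), whereas 4 of the 7 epithelial markers tested, KRT18, KRT8, EPCAM and KRT6A, had an adjusted p below 0.05 in the higher direction (limma), KRT6A reaching the filter only through the OV-BRCA1 group, and 1 in the lower, beside 16.4% and 18.9% of all genes tested. KRT8, higher here, is among the genes that the study's supplement lists as lower, as is KRT17, and the cause was not tested. The squamous markers KRT5, KRT14 and TP63 were below 1 FPKM in all 6 samples. Of 9 stromal markers, 7 were below 0.5 FPKM in all 6 samples, with LUM and POSTN at 0, and the summed level of 2.50 to 3.998 FPKM against 1.67 to 2.17 FPKM was mainly FAP. Endothelial markers summed to 0.761 to 1.45 FPKM against 0.629 to 0.788 FPKM, with VWF and KDR at 0. Leukocyte markers summed to 22.2 to 29.5 FPKM against 2.97 to 4.35 FPKM, nearly all of it CD68, with PTPRC at 0. The collagen transcripts measured here therefore stood beside fibroblast, endothelial and leukocyte markers that were mostly at or near 0, and the part of CD68 and of the summed epithelial level in the collagen values was not tested. In such bulk samples, fewer cells of a kind and less RNA per cell cannot be told apart.

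The feature that defines the family was visible in the transcripts. In the GENCODE 29 transcript sequences, a run of at least 20 triplets of the form GGN, one in every 9 bases, was found in 70 of 19669 genes with protein-coding transcripts (0.356%). The search read letters over the whole transcript, without regard to reading frame or coding exons. All 44 collagen genes were among these 70, with 26 other genes. Stretches of 10 such repeats are shown for the 3 genes with the most collagen FPKM, because the triple helix they encode is what all 44 genes share. They are written 5′ to 3′, and capitals mark the glycine codons.
COL12A1-201: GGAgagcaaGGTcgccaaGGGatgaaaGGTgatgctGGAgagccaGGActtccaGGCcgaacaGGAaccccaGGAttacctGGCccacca
COL7A1-201: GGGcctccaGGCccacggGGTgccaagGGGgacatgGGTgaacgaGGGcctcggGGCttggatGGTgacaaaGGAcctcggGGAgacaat
COL5A1-201: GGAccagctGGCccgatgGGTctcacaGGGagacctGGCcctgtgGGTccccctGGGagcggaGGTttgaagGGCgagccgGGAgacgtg
All 3 stretches lie in coding exons, and an intron falls within the span of each. The COL12A1 stretch spans chr6:75101627-75102605 on the minus strand, the COL7A1 stretch chr3:48569393-48569627 on the minus strand and the COL5A1 stretch chr9:134752601-134753894 on the plus strand (GRCh38).

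The length of the unbroken repeat set the fibrillar genes apart from the other classes, while the range of the type IV genes lay within that of the other types. The longest run held 216 to 343 repeats in the 11 fibrillar genes (median 338), 38 to 66 in the 6 type IV genes (median 41) and 23 to 113 in the 27 other genes (median 56). COL5A1-201, COL1A1-201 and COL11A2-201 each had a longest run of 338 repeats. COL7A1-201 held 468 repeats in 18 runs of at least 10, more than the 355 repeats of each of these 3, but its longest run was of 75. COL12A1-201 had 78 repeats in 4 runs, the longest of 32, and the remainder of its 11723 bases lay outside them. COL12A1 belongs to the FACIT collagens, which sit on the surface of fibrils and carry large non-helical domains.

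**Figure D1:**
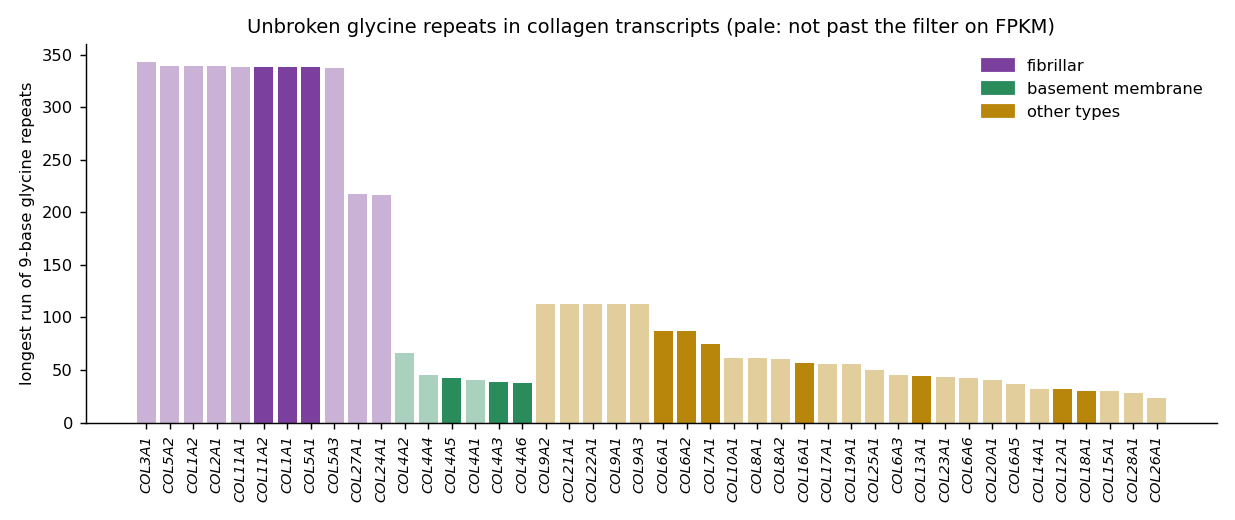
Bars give the longest unbroken run of 9-base glycine repeats in any protein-coding transcript of each of the 44 collagen genes, colored by class; pale bars are genes that did not pass the filter on FPKM. The fibrillar genes reach 216 to 343 repeats, whereas no other collagen gene exceeds 113.

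SiHa cells made a small and uneven set of collagen transcripts. Only 6 of the 44 genes were at 10 FPKM or more in every sample: COL12A1, COL7A1, COL5A1, COL6A1, COL4A5 and COL6A2. COL12A1 and COL7A1 together made up most of the collagen FPKM in both groups. COL12A1 alone accounted for 42.0% ± 0.340 (SD, n = 3) of it with OV-BRCA1, against 35.7% ± 0.454 (SD, n = 3) with NC. Of the 44 genes, 7 were listed at 0 in all 6 samples: COL4A1, COL6A3, COL9A1, COL11A1, COL19A1, COL22A1 and COL23A1. In all, 31 genes did not pass the filter for testing (0.5 FPKM or more in 3 or more samples), and 17 of these stayed below 0.1 FPKM in every sample.

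**Figure D2:**
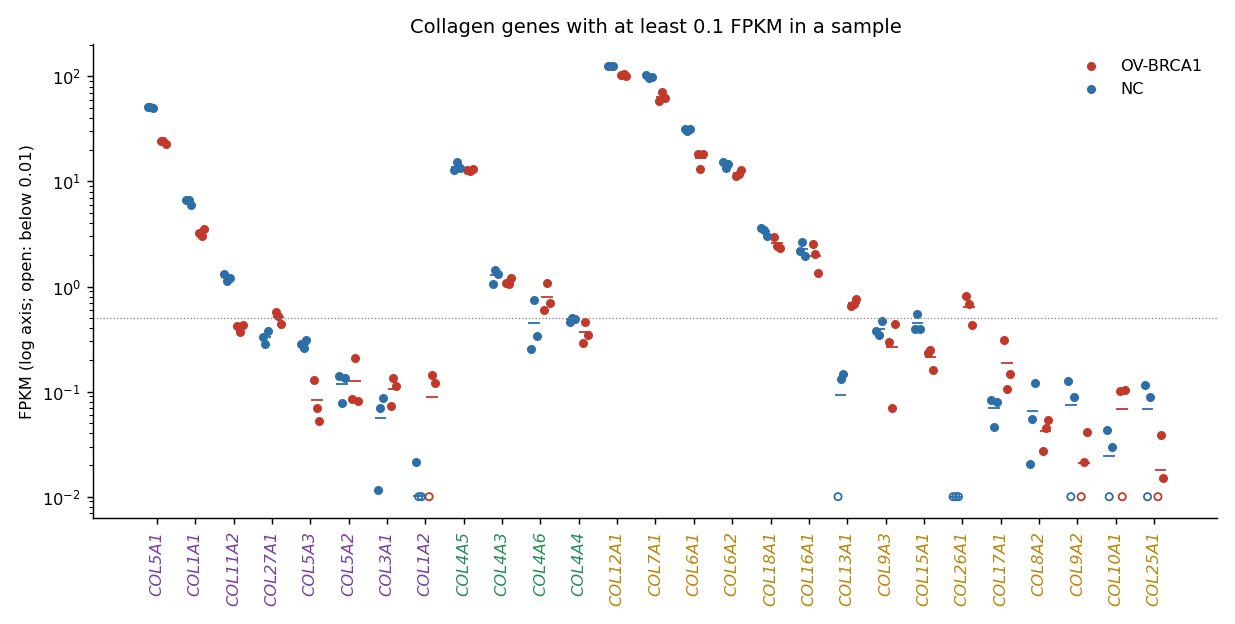
FPKM on a log axis for each sample of the collagen genes that reached 0.1 FPKM in a sample, with group means as short lines; open points at the bottom are values below 0.01, and the dotted line is the 0.5 FPKM of the filter. Gene names are purple for fibrillar, green for type IV and brown for other types. COL12A1 and COL7A1 stand above all others, and the 3 OV-BRCA1 points of COL5A1 (22.7 to 24.3 FPKM) lie well under its 3 NC points (49.8 to 51.0 FPKM).

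Collagen transcripts were lower in total in the OV-BRCA1 group. Summed over the 44 genes they came to 246 FPKM ± 5.14 (SD, n = 3), which was 69.7% of the 353 FPKM ± 2.85 (SD, n = 3) of the NC group. Relative to the NC level, the fibrillar genes fell furthest, from 59.0 FPKM ± 1.00 to 28.3 FPKM ± 0.703, or 48.0% of it. The other types stood at 202 FPKM ± 4.89 against 278 FPKM ± 4.39, or 72.8%. The type IV genes stood at 15.1 FPKM ± 0.263 against 16.01 FPKM ± 1.83, and their ranges overlapped. These sums are led by COL12A1, COL7A1 and COL5A1, and with 3 samples a group no 2-sided exact permutation test could give a p below 0.1.

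In the fit across 16321 genes, limma's moderated test on log2(FPKM + 1) with Benjamini-Hochberg adjustment, 13 collagen genes were tested. An adjusted p below 0.05 was reached by 6 of them in the lower direction (COL5A1, COL6A1, COL1A1, COL11A2, COL7A1 and COL12A1) and by 1 in the higher direction (COL13A1). Over all genes tested, 35.3% passed, 18.9% in the lower and 16.4% in the higher direction. The median log2 fold change was -0.28 over the 13 collagen genes and -0.04 over all genes tested. The NC samples and the OV-BRCA1 samples did not overlap for 8 collagen genes that were lower and 1 that was higher, beside 27.4% and 23.4% of all genes tested. COL11A2 and COL13A1 reached the filter only through the group in which they were high, so they had to differ, and the counts over tested genes are given as a description. With an absolute log2 fold change above 1 asked for as well, COL5A1 alone passed in the lower direction, where 1.1% of all genes tested did, and no collagen gene passed in the higher direction, where 2.89% did. The study, with DESeq and these thresholds, lists COL1A1 and COL6A1 among its lower genes and not COL5A1. Here COL1A1 and COL6A1 had log2 fold changes of -0.79 and -0.89, and the cause of the difference was not tested.

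**Figure D3:**
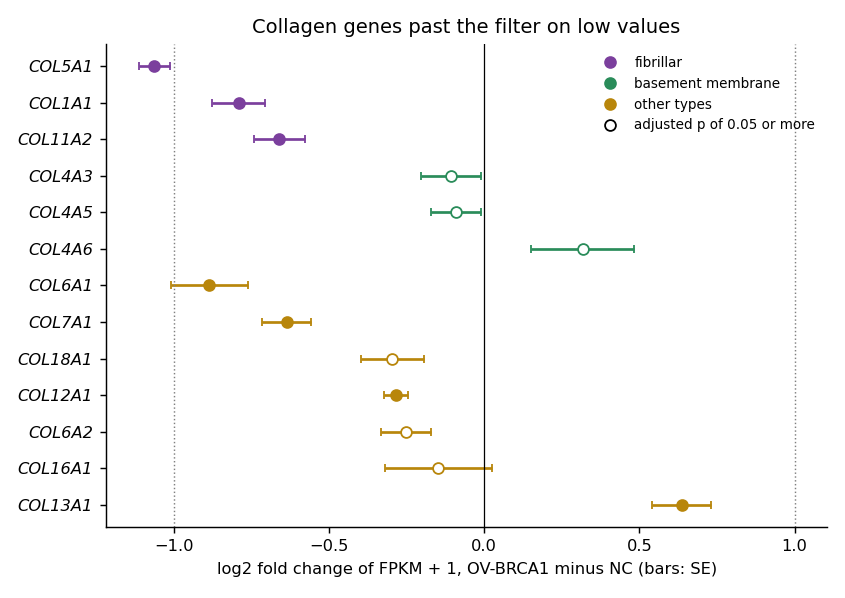
Log2 fold change of FPKM + 1 (OV-BRCA1 minus NC) for the 13 tested collagen genes, colored by class, with bars for the SE of the limma fit; filled points have an adjusted p below 0.05 and dotted lines mark a log2 fold change of -1 and 1. The 3 fibrillar genes lie between -1.06 and -0.66, the 3 type IV genes are open points between -0.11 and 0.32, and COL13A1 is the single filled point to the right of 0.

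Among the fibrillar collagens, 3 of 11 genes were tested and these 3 fell, beside 18.9% of all genes tested. COL11A2 was among them only because it passed the filter through the NC group, so the count is a description. COL5A1 encodes a chain of type V collagen, which starts and limits the growth of type I fibrils, and lies at chr9:134641774-134844843 on the plus strand. It was at 24.1, 24.3 and 22.7 FPKM in the OV-BRCA1 samples and at 51.0, 50.9 and 49.8 FPKM in the NC samples. The groups were far apart relative to the spread within them (log2 fold change -1.06, SE 0.050, adjusted p = 3.98e-05, limma). COL1A1, at chr17:50183289-50201632 on the minus strand, encodes the main chain of type I collagen, the bulk collagen of skin, bone and scar. It was at 3.24, 3.03 and 3.56 FPKM against 6.61, 6.61 and 5.96 FPKM (log2 fold change -0.79, SE 0.085, adjusted p = 0.00106, limma). COL11A2, at chr6:33162681-33192499 on the minus strand, encodes a chain of type XI collagen, known from cartilage. It was at 0.423, 0.369 and 0.427 FPKM against 1.32, 1.14 and 1.21 FPKM (log2 fold change -0.66, SE 0.083, adjusted p = 0.00186, limma). For COL5A1 and COL1A1 each OV-BRCA1 sample was below each NC sample, as for 27.4% of all genes tested.

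The remaining fibrillar genes were low or listed at 0. COL1A2, the second chain of type I collagen, reached at most 0.144 FPKM, COL5A2 at most 0.210 FPKM and COL3A1, the single chain of type III collagen, at most 0.134 FPKM in any sample. COL5A3, a further type V chain, was at 0.0841 FPKM ± 0.0400 (SD, n = 3) against 0.285 FPKM ± 0.0253 (SD, n = 3), under the filter. COL27A1 was at 0.443 to 0.573 FPKM against 0.282 to 0.376 FPKM and was not tested either. COL2A1 and COL24A1 stayed below 0.1 FPKM and COL11A1 was listed at 0. COL5A1 therefore carried the fibrillar sum almost alone, with COL1A1 next.

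Of the 6 type IV genes, 3 were tested and 0 were called in either direction (limma, and 0 also at an unadjusted p below 0.05), beside 35.3% of all genes tested, which says little for 3 genes. In the genome they lie as 3 head-to-head pairs, with RefSeq start sites (GRCh38.p14) 127 bases apart for COL4A1 and COL4A2, 419 for COL4A3 and COL4A4 and 380 for the nearest starts of COL4A5 and COL4A6. COL4A5 was at 12.9, 12.4 and 13.2 FPKM in the OV-BRCA1 samples and at 12.7, 15.3 and 13.3 FPKM in the NC samples, and the groups overlapped (log2 fold change -0.09, adjusted p = 0.432, limma). Its partner COL4A6 ran from 0.602 to 1.08 FPKM against 0.254 to 0.742 FPKM (log2 fold change 0.32, adjusted p = 0.186, limma). COL4A3 was at 1.09, 1.05 and 1.20 FPKM against 1.07, 1.45 and 1.33 FPKM (log2 fold change -0.11, adjusted p = 0.440, limma), and COL4A4, untested, was at 0.289 to 0.461 FPKM against 0.463 to 0.505 FPKM. COL4A1 and COL4A2, which encode the chains found in nearly every basement membrane, were listed at 0 and at no more than 0.0280 FPKM. The genes beside that pair on chromosome 13 were not at 0, with IRS2 at 3.30 to 3.82, RAB20 at 3.39 to 6.05, NAXD at 10.2 to 12.9 and CARS2 at 20.9 to 34.0 FPKM over the 6 samples.

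Among the collagens of other types, the anchoring fibril gene COL7A1 and the FACIT gene COL12A1 were the most abundant. COL7A1, at chr3:48564073-48595267 on the minus strand, encodes the anchoring fibrils that tie the epidermal basement membrane to the dermis. It was at 58.4, 71.0 and 61.7 FPKM in the OV-BRCA1 samples and at 102.7, 96.3 and 98.7 FPKM in the NC samples (log2 fold change -0.64, SE 0.079, adjusted p = 0.00180, limma). COL12A1, at chr6:75084326-75206051 on the minus strand, was at 102.6, 105.3 and 101.6 FPKM against 125.1, 125.6 and 126.7 FPKM (log2 fold change -0.28, SE 0.039, adjusted p = 0.00260, limma). Both genes were lower in every OV-BRCA1 sample than in any NC sample, COL12A1 by the smaller step and with the smaller spread. COL16A1, the other FACIT gene tested, was at 2.54, 2.03 and 1.33 FPKM against 2.16, 2.64 and 1.96 FPKM, and the groups overlapped (adjusted p = 0.547, limma).

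Type VI collagen forms beaded filaments around cells from 3 chains. COL6A1, at chr21:45981737-46005050 on the plus strand, was at 18.1, 13.2 and 18.3 FPKM against 31.3, 30.3 and 31.7 FPKM (log2 fold change -0.89, SE 0.125, adjusted p = 0.00290, limma), but did not pass in its most abundant transcript (adjusted p = 0.169) or in protein-coding transcripts only (0.159). COL6A2, further along the same chromosome at chr21:46098097-46132849, was at 11.4, 11.7 and 13.0 FPKM against 15.4, 13.4 and 14.7 FPKM, which did not overlap but missed the threshold (log2 fold change -0.25, adjusted p = 0.0524, limma). It passed in 4 of 14 alternatives (lowest adjusted p = 0.0305, limma), among them without the third OV-BRCA1 sample (0.0462) and without the second NC sample (0.0487). The ratio of COL6A1 to COL6A2 was 1.38 ± 0.230 (SD, n = 3) with OV-BRCA1 and 2.15 ± 0.113 (SD, n = 3) with NC. The ratios of the groups did not overlap, and p = 0.1 in a 2-sided exact permutation test, the smallest that 3 against 3 samples allow, unchanged by adjustment over the 3 ratios tested. COL6A3, which encodes the remaining chain of the classical trimer, was listed at 0 in all samples, and COL6A5 and COL6A6 stayed below 0.01 FPKM.

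COL18A1, whose C-terminal fragment is endostatin, was at 2.94, 2.45 and 2.34 FPKM against 3.63, 3.46 and 3.06 FPKM (log2 fold change -0.30, adjusted p = 0.0663, limma), and passed without the first OV-BRCA1 sample (adjusted p = 0.0478). It overlaps SLC19A1 on the opposite strand, which stood at 12.2 FPKM against 6.82 FPKM, and whether strand was used in quantification is not given in the sources used here. Its multiplexin relative COL15A1 was at 0.161 to 0.251 FPKM against 0.391 to 0.551 FPKM and was not tested.

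COL13A1 was the single tested collagen gene called in the higher direction, and it had to differ, since it reached the filter only through the OV-BRCA1 group. It encodes a transmembrane collagen of cell adhesions and lies at chr10:69801867-69964275 on the plus strand. It was at 0.650, 0.685 and 0.755 FPKM in the OV-BRCA1 samples and at 0, 0.132 and 0.148 FPKM in the NC samples (log2 fold change 0.64, SE 0.095, adjusted p = 0.00362, limma). The level was low in both groups, and the fold change on the log2(FPKM + 1) scale understates the ratio of such low values. COL26A1, singled out after its values were seen, showed a like pattern below the filter, with 0.813, 0.685 and 0.434 FPKM in the OV-BRCA1 samples and 0 in all NC samples. It overlaps the pseudogene AC004965.1 on the opposite strand, which stood at a mean of 0.349 FPKM against 0. No fold is given against a group listed at 0. The transmembrane collagen COL17A1, a hemidesmosome component, was at 0.106 to 0.307 FPKM against 0.0460 to 0.0828 FPKM, and COL23A1 was listed at 0. The remaining genes of other types, among them COL8A1, COL8A2, COL9A2, COL9A3, COL10A1, COL14A1, COL20A1, COL21A1, COL25A1 and COL28A1, were below 0.5 FPKM in every sample.

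The deposited values are per transcript, and their split between overlapping transcripts of a gene is an estimate. Of 347 collagen transcripts listed, 41 from 11 genes passed the same filter in a fit across 50925 transcripts. Of these, 5 had an adjusted p below 0.05 in the lower direction (limma) and 0 in the higher, where 2.63% and 2.85% of all transcripts tested did. The 5 were COL12A1-205, COL7A1-201, COL1A1-201, COL5A1-206 and COL6A1-207. COL5A1-206 and COL6A1-207 reached the filter only through the NC group, so the count is in part set by the filter and is given as a description.

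For COL12A1 a short transcript passed the test and the full-length transcript did not. COL12A1-205, of 3135 bases, holds 22 exons and ends at the same base as the 66-exon COL12A1-201, within which all of its exon bases fall. It was at 70.7, 73.6 and 69.2 FPKM in the OV-BRCA1 samples and at 95.8, 94.3 and 97.1 FPKM in the NC samples (log2 fold change -0.42, adjusted p = 0.0131, limma). The full-length COL12A1-201 was at 17.4, 18.4 and 18.4 FPKM against 17.4, 18.7 and 17.6 FPKM, and the groups overlapped (log2 fold change 0.02, adjusted p = 0.932, limma). Summed with the long transcripts COL12A1-203, COL12A1-207 and COL12A1-211, it was at 28.8, 29.9 and 29.9 FPKM against 27.9, 27.2 and 27.4 FPKM. That sum, which was not tested, was higher in every OV-BRCA1 sample, so the lower level of the gene lay in COL12A1-205. The ratio of the short to the full-length transcript was 3.94 ± 0.158 against 5.36 ± 0.271 (SD, n = 3), without overlap (p = 0.1, 2-sided exact permutation test). COL12A1-205 has no annotated start codon but holds the whole run of 32 glycine repeats printed in part above, so reads from that region fit both transcripts.

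For COL7A1, the 118-exon transcript COL7A1-201 was at 29.8, 33.6 and 31.2 FPKM against 59.6, 55.2 and 57.4 FPKM (log2 fold change -0.85, adjusted p = 0.00469, limma). The other COL7A1 transcripts, mostly annotated as retained introns, summed to 32.2 FPKM ± 4.64 against 41.8 FPKM ± 1.16 (SD, n = 3). The ratio of COL7A1-201 to the rest was 0.987 ± 0.0774 against 1.37 ± 0.0231 (SD, n = 3), again without overlap (p = 0.1, 2-sided exact permutation test).

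For COL5A1 the split between transcripts was not stable between samples of a group. COL5A1-208 and COL5A1-201 both have 66 exons, and 99.2% of the exon bases of the former lie in the latter. COL5A1-208 was at 15.2, 0.136 and 16.7 FPKM in the OV-BRCA1 samples while COL5A1-201 was at 6.87, 22.4 and 4.72 FPKM, the second sample being the reverse of the other two. Their sum was steady at 22.1, 22.6 and 21.4 FPKM, against 45.8, 46.6 and 45.7 FPKM in the NC group, so the lower COL5A1 level holds for the pair and neither transcript passed the test alone. COL4A5-201 and COL4A5-202 traded places between samples in the same way. COL5A1-206, a retained-intron transcript of 583 bases, was at 0.284 FPKM ± 0.102 against 2.19 FPKM ± 0.314 (SD, n = 3), and passed the filter only through the NC group.

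For COL6A1 most of the FPKM came from COL6A1-206, a 6-exon transcript of 2358 bases without annotated coding sequence, which made up 59.2% of the gene with OV-BRCA1 and 64.8% with NC. It was at 13.0, 3.62 and 12.8 FPKM against 22.3, 22.1 and 16.1 FPKM (adjusted p = 0.242, limma). The full-length COL6A1-201 was at 4.37, 8.34 and 3.82 FPKM against 4.10, 4.58 and 1.64 FPKM, with overlap. COL6A1-207 was listed at 0 in all OV-BRCA1 samples and at 3.55, 3.08 and 12.8 FPKM in the NC samples (adjusted p = 0.0401, limma), and it passed the filter only through the NC group, so it had to differ. Summed over protein-coding transcripts only, COL6A1 no longer passed (log2 fold change -0.75, adjusted p = 0.159, limma).

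**Figure D4:**
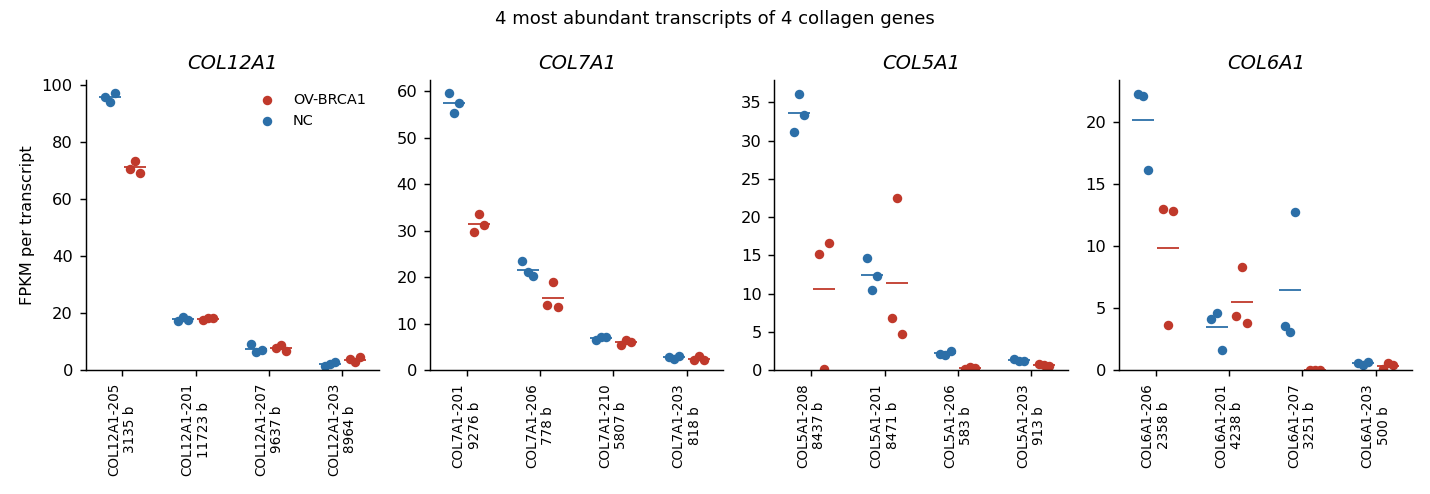
FPKM per sample of the 4 most abundant transcripts of COL12A1, COL7A1, COL5A1 and COL6A1, with lengths in bases (b) and group means as short lines. COL12A1-205 and COL7A1-201 separate the groups, COL12A1-201 does not, and the second OV-BRCA1 sample lies far from the other two for COL5A1-208 (0.136 FPKM) and COL6A1-206 (3.62 FPKM).

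Promoters are shown for the 3 most abundant genes that fell and, as an example from a gene at a low level, for COL13A1, and no contrast between them is drawn. RefSeq (GRCh38.p14) windows matched 32 of the 44 symbols, with 44 windows because some genes have several starts. Each sequence is the 250 bases before the annotated start, 5′ to 3′ on the strand of the gene, and capitals mark matches on either strand to GGGCGG (the GC box), CCAAT (the CCAAT box), TATAAA (the TATA box) or TGANTCA (the AP-1 site).
COL12A1: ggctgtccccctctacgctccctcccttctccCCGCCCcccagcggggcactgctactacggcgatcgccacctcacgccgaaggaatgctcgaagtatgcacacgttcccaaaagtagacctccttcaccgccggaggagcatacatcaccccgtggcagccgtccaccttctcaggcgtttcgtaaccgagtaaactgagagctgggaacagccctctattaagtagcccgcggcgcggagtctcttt
COL7A1: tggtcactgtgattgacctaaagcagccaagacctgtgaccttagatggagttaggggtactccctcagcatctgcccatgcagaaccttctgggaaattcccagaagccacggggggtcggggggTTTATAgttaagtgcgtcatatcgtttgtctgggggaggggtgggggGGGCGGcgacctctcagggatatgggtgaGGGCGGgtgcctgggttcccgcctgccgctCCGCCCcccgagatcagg
COL5A1: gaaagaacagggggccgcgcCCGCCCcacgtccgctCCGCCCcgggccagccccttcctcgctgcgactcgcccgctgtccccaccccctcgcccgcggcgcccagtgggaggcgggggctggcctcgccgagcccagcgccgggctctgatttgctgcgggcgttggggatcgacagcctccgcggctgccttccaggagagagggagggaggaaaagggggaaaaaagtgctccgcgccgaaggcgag
COL13A1: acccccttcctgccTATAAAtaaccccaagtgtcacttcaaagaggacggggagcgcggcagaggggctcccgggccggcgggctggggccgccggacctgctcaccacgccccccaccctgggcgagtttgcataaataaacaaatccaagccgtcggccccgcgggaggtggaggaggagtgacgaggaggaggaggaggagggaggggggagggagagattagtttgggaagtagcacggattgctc
The windows are chr6:75206054-75206303 (minus strand), chr3:48595330-48595579 (minus strand), chr9:134641553-134641802 (plus strand) and chr10:69801656-69801905 (plus strand). The GC box, the motif of SP1, was found 3 times in the COL7A1 window, 2 times in that of COL5A1, 1 time in that of COL12A1 and 0 times in that of COL13A1. It was in 54.5% of the 44 collagen windows and in 42.6% of all 35116 windows. TATAAA was in the windows of COL7A1 and COL13A1, in 18.2% of collagen windows and in 10.7% of all. CCAAT was in 27.3% against 32.0% and the AP-1 motif in 2.27% against 6.57%. The median GC content was 64.2% against 58.0%. A match describes the letters only, and no binding was measured.

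The genes that make, move, cut, crosslink, bind and degrade collagen had more calls in the higher than in the lower direction. Of 52 such genes in 6 lists, 36 were tested, 16 had an adjusted p below 0.05 in the higher direction and 5 in the lower. Over all genes tested, 16.4% passed in the higher and 18.9% in the lower direction. Their median log2 fold change was 0.33, beside -0.04 for all genes tested.

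The enzymes and chaperones that modify and fold collagen in the endoplasmic reticulum were the longest of these lists. Of 18 genes, 16 were tested, 10 were higher, 0 were lower and 6 did not pass (median log2 fold change 0.49), so 62.5% were called, beside 35.3% of all genes tested. PPIB, the prolyl isomerase cyclophilin B, was at 701 FPKM ± 8.68 against 348 FPKM ± 3.85 (SD, n = 3; log2 fold change 1.01, adjusted p = 1.09e-05, limma). P4HB, the beta subunit of prolyl 4-hydroxylase and also protein disulfide isomerase, was at 924 FPKM ± 16.2 against 413 FPKM ± 88.8 (log2 fold change 1.18, adjusted p = 0.00189, limma). P4HA1, the catalytic alpha subunit of that hydroxylase, was at 49.8 FPKM ± 1.30 against 25.5 FPKM ± 1.35 (log2 fold change 0.94, adjusted p = 1.16e-04, limma), but its most abundant transcript did not pass (adjusted p = 0.558). PLOD1, a lysyl hydroxylase, was at 80.8 FPKM ± 1.51 against 55.7 FPKM ± 1.61 (log2 fold change 0.53, adjusted p = 4.23e-04, limma). PPIB and P4HB serve many secreted proteins beside collagen.

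Of 4 secretion genes, all 4 were tested, 1 was called higher and 1 lower, beside 16.4% and 18.9% of all genes tested, which says little for 4 genes. MIA3, which loads procollagen into transport vesicles, was at 15.997 FPKM ± 0.791 against 25.0 FPKM ± 4.87 (SD, n = 3; log2 fold change -0.60, adjusted p = 0.0167, limma), and did not pass without the third OV-BRCA1 sample (adjusted p = 0.0545). Its relative MIA2 was at 18.9 FPKM ± 1.57 against 14.3 FPKM ± 1.82 (log2 fold change 0.39, adjusted p = 0.0341, limma), and passed in 1 of the 6 fits that left out a sample, the one without the second NC sample. In the most abundant transcript of each gene both directions turned, to 0.71 for MIA3 and -0.16 for MIA2, without passing the test. SEC23A, a coat protein of these vesicles, was at 26.8 FPKM ± 3.22 against 21.7 FPKM ± 0.833 and did not pass (adjusted p = 0.0585, limma), except without the second OV-BRCA1 sample (adjusted p = 0.0157), after median of ratios scaling (0.0383) and in protein-coding transcripts only (0.00684).

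Among propeptide processing genes, 3 of 8 were tested. PCOLCE2, an enhancer of procollagen C-proteinase, was at 7.61 FPKM ± 0.521 against 3.36 FPKM ± 0.242 (SD, n = 3; log2 fold change 0.98, adjusted p = 4.44e-04, limma). BMP1, that proteinase itself, was at 12.4 FPKM ± 0.406 against 19.9 FPKM ± 1.74 (log2 fold change -0.64, adjusted p = 0.00156, limma), but in protein-coding transcripts only it did not pass (log2 fold change -0.17, adjusted p = 0.846). The related enhancer PCOLCE was at 2.79 FPKM ± 0.979 against 5.03 FPKM ± 0.459 (log2 fold change -0.70, adjusted p = 0.0378, limma), and did not pass without the second OV-BRCA1 sample or without any 1 of the NC samples (adjusted p = 0.0669 to 0.105). The proteinase and its 2 enhancers thus did not move in 1 direction.

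Of 6 crosslinking genes, 4 were tested. LOX, which oxidizes lysines to start the crosslinks, was at 18.1 FPKM ± 1.59 against 11.6 FPKM ± 0.786 (SD, n = 3; log2 fold change 0.60, adjusted p = 0.00324, limma). LOXL2 was at 39.4 FPKM ± 0.359 against 38.2 FPKM ± 0.665 (adjusted p = 0.506, limma), and LOXL3 was at 2.50 FPKM ± 0.533 against 1.53 FPKM ± 0.948 (adjusted p = 0.171, limma), passing only without the third NC sample (adjusted p = 0.0178).

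Of 9 collagen receptors, 6 were tested, 2 rose and 1 fell, beside 16.4% and 18.9% of all genes tested. The largest log2 fold changes among them did not pass the test and are named after their values were seen: the integrin subunit ITGA2 was at 5.58, 19.8 and 5.82 FPKM against 3.78, 1.25 and 3.08 FPKM (log2 fold change 1.47, adjusted p = 0.0673, limma), and the receptor kinase DDR1 was at 3.01, 6.69 and 2.61 FPKM against 11.3, 6.93 and 7.91 FPKM (log2 fold change -0.99, adjusted p = 0.0529, limma). DDR1 passed without the second OV-BRCA1 sample (adjusted p = 0.00949). In both genes the groups did not overlap, and the second OV-BRCA1 sample stood apart from the other two. MRC2, an endocytic receptor that takes up collagen, was at 11.6 FPKM ± 0.780 against 15.5 FPKM ± 0.559 (SD, n = 3; log2 fold change -0.39, adjusted p = 0.00708, limma), and did not pass in protein-coding transcripts only (adjusted p = 0.124). The integrin subunit ITGA1 was at 3.93 FPKM ± 0.296 against 2.77 FPKM ± 0.306 (log2 fold change 0.39, adjusted p = 0.0231, limma), and its partner ITGB1 at 188 FPKM ± 19.7 against 145 FPKM ± 16.8 (log2 fold change 0.38, adjusted p = 0.0382, limma). Each of these 2 integrin calls was lost without any 1 of 4 samples (adjusted p = 0.0555 to 0.0692 for ITGA1, without the second or the third OV-BRCA1 or the first or second NC sample, and 0.105 to 0.108 for ITGB1, without the first or the third OV-BRCA1 or the first or second NC sample).

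Of 7 collagen-degrading proteases, 3 were tested. MMP1, the interstitial collagenase, was at 13.1, 12.6 and 11.6 FPKM in the OV-BRCA1 samples and at 0.389, 0.559 and 0.546 FPKM in the NC samples (log2 fold change 3.17, adjusted p = 6.03e-06, limma). CTSK, the lysosomal collagen protease cathepsin K, was at 1.58, 2.43 and 2.32 FPKM against 6.25, 7.35 and 6.82 FPKM (log2 fold change -1.34, adjusted p = 7.51e-04, limma). MMP14, a membrane-bound collagenase, was at 32.4 FPKM ± 1.52 against 28.8 FPKM ± 1.31 (SD, n = 3; log2 fold change 0.17, adjusted p = 0.0799, limma), and passed after median of ratios scaling (adjusted p = 0.0481) and in its most abundant transcript (0.0413). MMP1 had the largest log2 fold change of FPKM + 1 of the 36 tested genes in these lists.

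**Figure D5:**
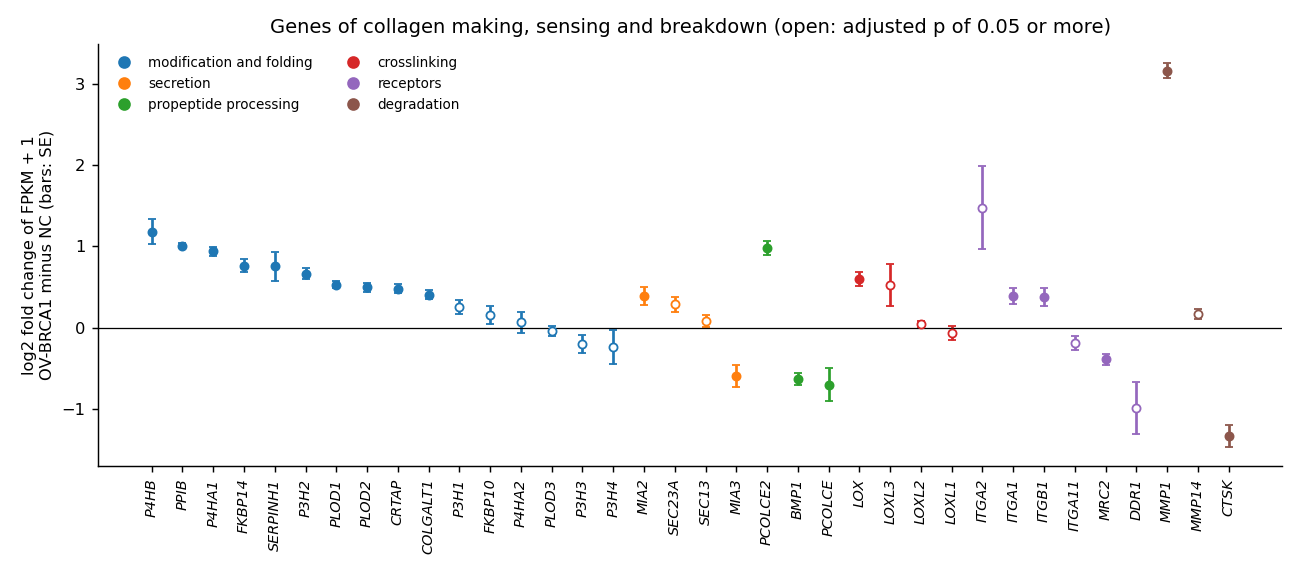
Log2 fold change of FPKM + 1 (OV-BRCA1 minus NC, bars for the SE of the limma fit) for the 36 tested genes of collagen modification, secretion, processing, crosslinking, binding and degradation, colored by list; filled points have an adjusted p below 0.05. The modification list has 10 filled points above 0 and none below, and MMP1 lies at 3.17.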

How the data were processed

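mRNA libraries of 6 SiHa samples, 3 with GV230-BRCA1 (OV-BRCA1) and 3 with GV230 (NC), were grouped by their labels. The authors discarded reads of low quality or with adapters or unknown nucleotides, normalized read counts by the FPKM method and deposited FPKM values for 199167 transcripts. The submitters' processing notes name FastQC, HISAT2 and hg38 without roles; the quantification tool, annotation and use of strand are not given in the sources used here. The 6 single-sample files equaled the table of the series.

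Transcripts were named by GENCODE release 29, which held 198868 of them (338 genes kept their identifier), and summed per gene. The collagen classes and the lists of related genes were chosen with earlier results of these data known. Genes that reached 0.5 FPKM in 3 or more samples (16321) were tested on log2(FPKM + 1) by the moderated test of limma 3.58.1 (R 4.3.3) with a mean-variance trend, OV-BRCA1 against NC, without covariates, and p-values were adjusted by Benjamini-Hochberg over all genes tested. A count test was not run, since whole reads were not recovered from FPKM (34.7 to 42.5% of low values lay within 0.1 of a whole read), so no counting intervals are given. The study's supplement states read totals per library, which were not used here. On simulated data with 16321 genes, 50 of them changed at each of 0.5, 1, 1.5 and 2 on the log2 scale, this test recovered 36%, 70%, 86% and 96%, with 10 false calls. In the data 35.3% of all genes tested were called, a larger share than was changed in the simulation. These rates may therefore not hold for the data. Values in every sample are given for tested collagen genes with an adjusted p below 0.05 or among the 10 highest by mean FPKM, and for up to 3 genes per list with the smallest adjusted p, and any past that threshold with a log2 fold change over 1 in size, values in samples or group means are given. Ratios were tested by exact permutation, 2-sided, over 3 ratios. Glycine repeats and motifs were found with Python 3.11.15; plots used matplotlib 3.10.9. Alternatives were a pseudocount of 0.1, no filter, FPKM of at least 1 in all 6 samples, median of ratios scaling, a replicate block, the most abundant transcript per gene, protein-coding transcripts only, robust estimation and leaving out each sample.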

Additional observations from a re-analysis of the deposited data

How the results depend on the processing

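Of the 13 tested collagen genes, all that had an adjusted p below 0.05 (limma) kept their direction under every alternative in which they were tested. COL5A1 (log2 fold change -2.33, adjusted p = 0.216) and COL6A1 (-1.12, 0.169) did not pass in the most abundant transcript, nor did COL6A1 in protein-coding transcripts only; COL6A2 passed in 4 settings (lowest adjusted p = 0.0305) and COL18A1 in 1, without the first OV-BRCA1 sample (0.0478). The number of lower collagen genes ran from 4 to 7, the 7 with no filter including COL5A3 (adjusted p = 0.0131). The number of higher ones was 2 with no filter on low values, where COL26A1 joined, and 0 with an FPKM of at least 1 in all samples, with the most abundant transcript and with protein-coding transcripts only, where COL13A1 was not among the genes tested. With a log2 fold change above 1 asked for, a pseudocount of 0.1 gave 2 lower and 1 higher, adding COL11A2 and COL13A1, and the most abundant transcript gave 0 lower. The number of lower related genes was 2 in protein-coding transcripts only. Over all genes, the lower and higher calls with no filter were 2418 and 2426 of 33326. They were 1589 and 2105 of 11862 in protein-coding transcripts only and 1606 and 1685 of 15614 in the most abundant transcript. At 1 FPKM in all samples they were 2720 and 2306 of 12607. The median log2 fold change of tested collagen genes was -0.031 with no filter, -0.53 in the most abundant transcript and -0.36 in protein-coding transcripts; that of fibrillar genes -1.09 with a pseudocount of 0.1, 0.0053 with no filter and -0.93 at 1 FPKM in all samples; that of other types -0.038 with no filter and -0.48 in the most abundant transcript; that of type IV genes 0.0053 in protein-coding transcripts. With no filter the medians include genes at or near 0 in both groups. MIA3 (0.71) and MIA2 (-0.16) reversed in the most abundant transcript; the cause was not tested.

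Leaving out 1 sample gave 6 to 7 lower and 1 higher collagen genes, medians of -0.29 to -0.25 over collagen genes and over other types, -0.84 to -0.75 over fibrillar and -0.14 to -0.017 over type IV genes, the last moved by the first and second NC samples, and 12 to 16 higher and 4 to 5 lower related genes. Over all 16321 genes the same fits gave 2279 to 2541 lower and 2109 to 2224 higher calls. Replicate numbers did not pair the samples (correlation of deviations -0.024 to 0.025 for like numbers). The replicate block left 6 lower and 1 higher collagen genes, and over all genes 2436 lower and 2159 higher calls, against 3090 and 2674 without it. Median of ratios scaling gave 2777 lower and 2961 higher calls over all genes and 6 lower and 1 higher collagen genes.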
